A study of Mus musculus with 10 samples.

Results

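Interferon-stimulated genes were measured in calf muscle of ethanol-injected and saline-injected mice. The list held 39 gene symbols: 32 interferon-induced effectors and 7 transcription factors of the interferon regulatory factor (IRF) and STAT families. Members were the rows of the count table whose symbol was on the list. There were 38 such rows among 24421, and *Rnf213* was not analysed here. *Zbp1*, a sensor of Z-form nucleic acids, did not pass the low-count filter, with raw counts between 4 and 23 per library. The other 37 members, 30 effectors and all 7 factors, were tested among 13180 genes. Membership went by symbol alone, and the list was drawn up with earlier results of these data known.

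The animals were male C57BL/6 mice aged 12 weeks. All of them, controls included, were housed singly and fasted for about 16 h, and stayed fasted until tissue was taken. The ethanol group (mice 51, 57, 59, 60 and 62) received ethanol at 3 g/kg by intraperitoneal injection, and the saline group (mice 32, 34, 36, 38 and 39) an equal volume of saline. The gastrocnemius and plantaris were dissected under isoflurane 1 h after the injection, so the data describe 1 early time point of 1 dose. RNA came from whole muscle: a lower count can reflect fewer cells of a type or less RNA per cell, which cannot be told apart.

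Interferons are secreted proteins that cells release after sensing foreign or misplaced nucleic acids. Type I interferons signal through JAK kinases to a complex that holds STAT2 and IRF9 and binds the interferon-stimulated response element (ISRE) in promoters. Type II interferon, or interferon gamma, acts through another promoter element, the gamma-activated site (GAS). The induced genes encode sensors, antiviral enzymes, GTPases of cell-autonomous defence and the factors IRF1, IRF7, IRF9 and STAT2 themselves. In muscle, these genes are best known from inflammatory myopathies, above all dermatomyositis.

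Library totals were 20317959 to 31252438 counts in the ethanol group and 32038927 to 42654771 in the saline group, so every ethanol library was shallower. Myofibre markers (11 of 11 genes tested, among them the creatine kinase gene *Ckm* and the actin gene *Acta1*) summed to 171582 to 200077 CPM in ethanol and 167766 to 200580 CPM in saline libraries. CPM are counts scaled to library size, here with TMM, a factor that corrects for differences in library composition. Saline 36 and ethanol 57 stood apart from the rest in the effector genes, and many fold changes are also given without them.

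The promoters show what many of the effectors share beyond the list. The sequences below are 60-base windows around the ISRE letters of 7 effectors whose fold changes are described in full or that sit beside them in the same gene cluster, of *Isg15* and *Oas1a* as classical interferon targets, and of *Stat2* as a factor. They come from RefSeq on GRCm38.p6, run 5′ to 3′ on the strand of the gene, with capitals marking the ISRE letters, GAAA, 2 bases of any kind and GAAA again, or their reverse complement.
Irgm1, chr11:48871413-48871472, minus strand: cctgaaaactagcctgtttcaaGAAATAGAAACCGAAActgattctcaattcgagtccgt
Igtp, chr11:58199497-58199556, plus strand: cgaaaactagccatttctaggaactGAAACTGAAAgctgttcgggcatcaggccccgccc
Irgm2, chr11:58214888-58214947, plus strand: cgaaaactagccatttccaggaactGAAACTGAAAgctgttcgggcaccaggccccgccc
Gbp2, chr3:142620579-142620638, plus strand: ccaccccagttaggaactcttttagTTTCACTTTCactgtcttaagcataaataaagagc
Gbp3, chr3:142559977-142560036, plus strand: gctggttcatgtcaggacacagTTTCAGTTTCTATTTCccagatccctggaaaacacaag
Gbp7, chr3:142530258-142530317, plus strand: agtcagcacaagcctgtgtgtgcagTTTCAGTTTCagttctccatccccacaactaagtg
Bst2, chr8:71537565-71537624, minus strand: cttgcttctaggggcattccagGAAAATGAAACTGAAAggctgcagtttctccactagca
Isg15, chr4:156200856-156200915, minus strand: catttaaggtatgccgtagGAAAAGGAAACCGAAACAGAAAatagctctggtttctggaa
Oas1a, chr5:120907508-120907567, minus strand: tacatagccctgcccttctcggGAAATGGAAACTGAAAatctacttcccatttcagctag
Stat2, chr10:128270251-128270310, plus strand: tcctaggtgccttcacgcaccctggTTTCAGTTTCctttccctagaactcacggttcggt

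In *Isg15* 3 overlapping matches follow each other in the same run, and in *Irgm1*, *Gbp3*, *Bst2* and *Oas1a* 2 do. The GENCODE models of *Igtp* and *Irgm2* overlap on chromosome 11 and share 162 exonic bases on the same strand. Their promoter windows above were the same at 58 of 60 bases. They differed by T18C and T48C, counted from 1 at the 5′ end of the window with the base of *Igtp* first. In both, a GAS match ends 2 bases before the ISRE letters.

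RefSeq promoter windows, from 250 bases before to 50 after the start of a gene, were found for 31 of the 39 members. No window was matched for *Zbp1*, *Usp18*, *Dhx58*, *Parp14*, *Ifi27*, *Parp9*, *Gbp6* and *Iigp1*. The ISRE letters, sought on both strands, were present for 17 of the 31 members (54.8%), against 3.99% of the 27025 genes with a window. They were found for 15 of 24 effectors (62.5%) and for 2 of 7 factors (28.6%), *Stat2* and *Irf2*. A stricter form, GAAAC, 1 base of any kind and GAAA, was present for 12 members (38.7%), against 0.792% of all genes.

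The GAS letters TTCNNNGAA, which read the same on both strands, were present for 12 of the 31 members (38.7%), against 9.55% of all genes with a window. *Irf1*, *Irf2* and *Irf8* were the factors among them. ISRE and GAS letters stood together in 7 windows, those of *Bst2*, *Eif2ak2*, *Gbp7*, *Igtp*, *Irf2*, *Irgm2* and *Oas1a*, and they overlapped only in that of *Bst2*. A match is a run of letters and was not measured as a binding site.

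**Figure D1:**
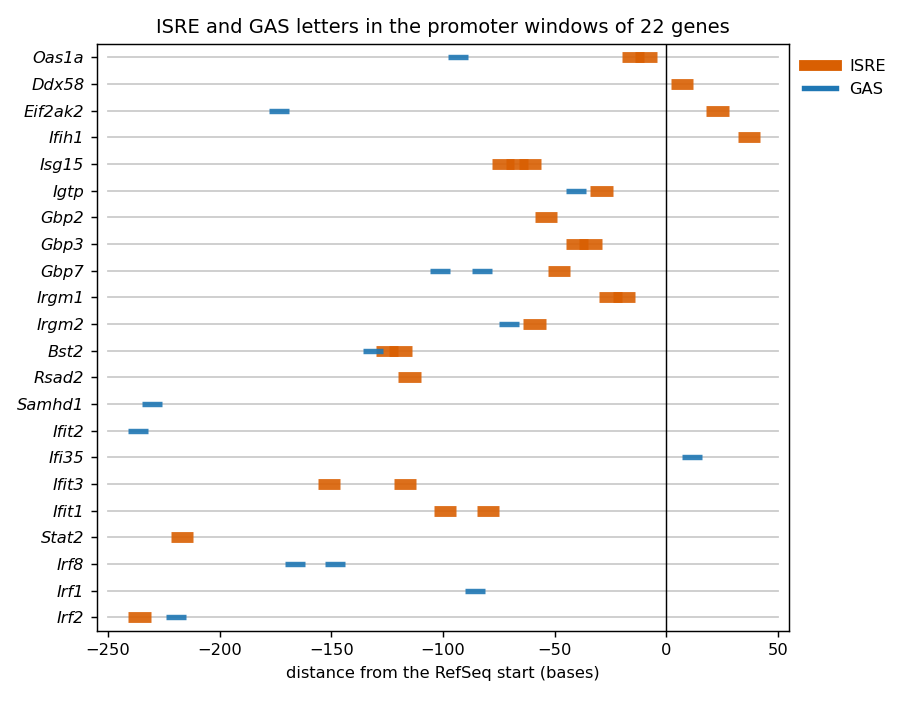
Position of ISRE letters (orange, on either strand) and GAS letters (blue, TTCNNNGAA) in the promoter windows of 22 members; the x axis is the distance from the RefSeq start in bases and each row is a gene. The ISRE matches of the effectors lie between -156 and 41 bases from the start, while those of *Stat2* and *Irf2* begin at -222 and -241.

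The comparison of ethanol with saline asked whether these genes differed 1 h after the injection. The effectors leaned towards higher levels in ethanol by small amounts, and the factors less so. Of 30 tested effectors, 28 had a positive log2 fold change (93.3%), against 50.2% of all tested genes, with a median of 0.21. Of the 7 factors 5 were positive, with a median of 0.088, and the median of all tested genes was 0.00096. The difference between effectors and factors was not tested, since genes of the same libraries are not replicates.

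No member passed a false discovery rate (FDR) of 0.05 over all genes with edgeR's quasi-likelihood test, with DESeq2 or with limma-voom. That threshold called 0% of the 13180 genes with edgeR, 0% with limma-voom and 0.454% of the genes with an adjusted p in DESeq2. At an unadjusted edgeR p under 0.05 there were 7 of 37 members (18.9%), against 12.1% of all tested genes. The 7 were all effectors: *Irgm1*, *Igtp*, *Gbp7*, *Gbp2*, *Dtx3l* and *Bst2* were higher in ethanol, in a direction that 6.22% of all genes took, and *Gbp6* was lower, as were 5.91% of all genes. With DESeq2 6 members were under that p (12.7% of all genes), and with limma-voom also 6 (12.3%). The ethanol and saline libraries overlapped in CPM for every one of the 37 members, where 2.18% of all tested genes had groups that did not overlap.

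These counts depended on single mice. Without ethanol 57 there were 2 members at an unadjusted p under 0.05, without saline 39 there were 3 and without ethanol 60 there were 4. Without both saline 36 and ethanol 57 there were 3. The share of all tested genes at that p was 8.19%, 11.5%, 10.6% and 7.67% in these settings, in the same order. With 1 surrogate variable, a hidden pattern estimated from the data and added to the fit, there were 2 members, against 10.1% of all tested genes. Without ethanol 57 the median log2 fold change was 0.096 for the effectors and -0.018 for the factors, and without saline 36 it was 0.15 and 0.060. Without both of these libraries it was 0.088 and -0.024, with 70.0% of the effectors positive. That share was 86.7% with DESeq2 and 66.7% with 1 surrogate variable.

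**Figure D2:**
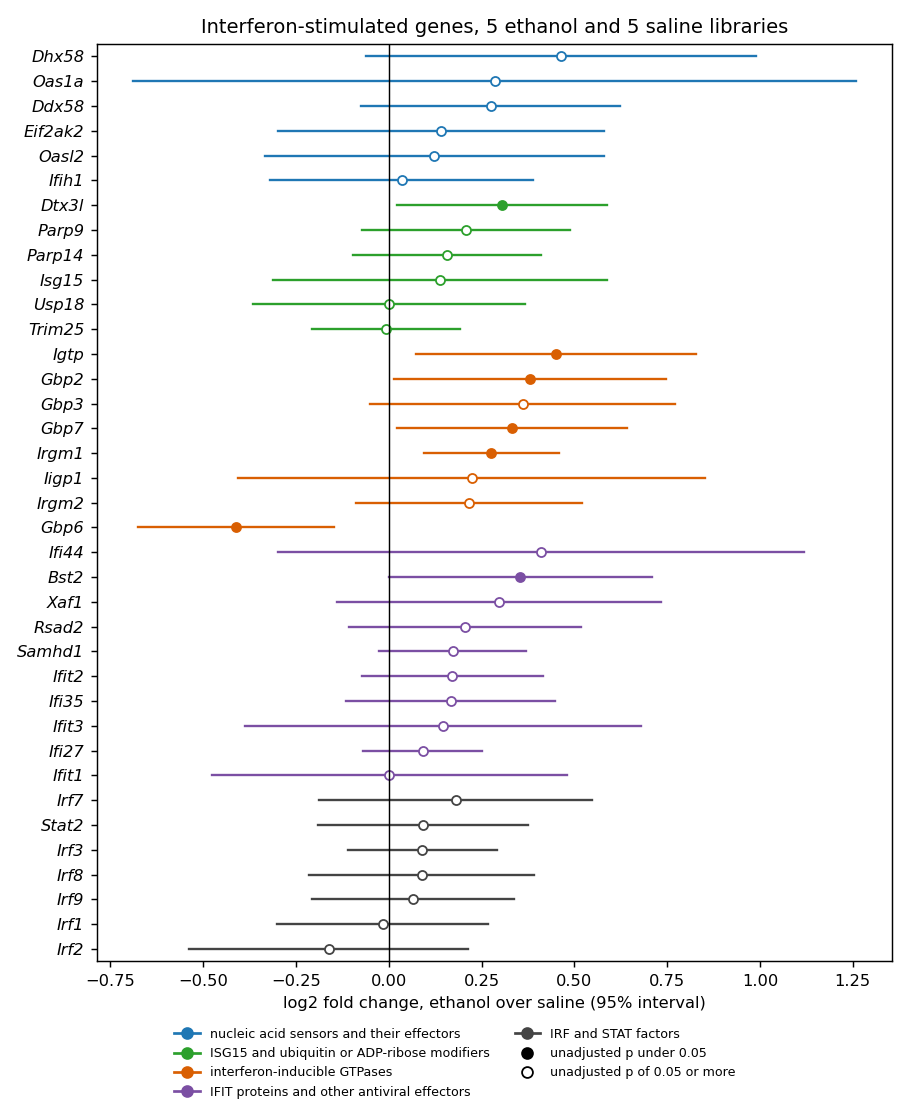
Log2 fold change of ethanol over saline (x axis) for the 37 tested members, grouped by role, with 95% intervals from edgeR; filled points have an unadjusted p under 0.05. The intervals of 30 members include 0, among them those of all 7 IRF and STAT factors. Of the 4 members with a negative value only *Gbp6*, at -0.41, has an interval wholly below 0.

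The interferon-inducible GTPases held 5 of the 7 members at an unadjusted p under 0.05. They attack the membranes around intracellular microbes, and fall into the guanylate-binding proteins (GBPs) and the smaller immunity-related GTPases (IRGs). Of the 8 members in this group 7 had positive log2 fold changes, with a median of 0.30. At that p 4 were higher in ethanol and 1 was lower (62.5% of 8, against 12.1% of all tested genes).

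*Irgm1* regulates the other IRG proteins and autophagy (GRCm38 chromosome 11, 48861968 to 48871683). It stood at 13.9, 15.8, 14.3, 15.2 and 16.3 CPM in ethanol mice 51, 57, 59, 60 and 62, against 12.1, 14.1, 11.0, 12.4 and 12.7 CPM in saline mice 32, 34, 36, 38 and 39. All but ethanol 51 lay above the highest saline library, so the groups overlapped by that mouse alone. On the log2 scale the difference was 0.28 ± 0.08 (SE, edgeR FDR = 0.293). Leaving out each library in turn gave 0.23 to 0.33, and its unadjusted p stayed under 0.05 in all 22 alternatives tried. The other members under that p stayed there in fewer of the 22. The number was 21 for *Gbp6*, 18 for *Igtp*, 15 for *Gbp7*, 12 each for *Gbp2* and *Dtx3l* and 5 for *Bst2*.

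*Igtp*, also called Irgm3, is an IRG protein found on lipid droplets and the endoplasmic reticulum (chromosome 11, 58199556 to 58207591). It stood at 6.31, 7.44, 6.29, 6.39 and 5.23 CPM in ethanol mice, against 4.63, 6.27, 2.74, 4.81 and 4.75 CPM in saline mice, in the same order of animals. Saline 34 lay among the ethanol libraries and saline 36 far below all others. On the log2 scale the difference was 0.45 ± 0.18 (SE, edgeR FDR = 0.354), and 0.30 without saline 36.

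*Irgm2*, which shares a promoter sequence with *Igtp* as shown above, averaged 13.7 ± 1.87 CPM in ethanol and 11.8 ± 2.41 CPM in saline (SD, n = 5 each). Its difference was 0.22 ± 0.14 (log2, SE), and 0.095 without saline 36. *Iigp1*, an IRG protein that coats the vacuoles of parasites, averaged 6.06 ± 2.67 CPM in ethanol and 5.21 ± 1.47 CPM in saline (SD, n = 5 each). Ethanol 57 held 10.5 CPM of it and the other ethanol libraries 3.75 to 6.39 CPM, and without that mouse its log2 fold change was -0.076, against 0.22 with all mice and 0.077 without saline 36.

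Among the GBPs, the members on chromosome 3 and the member on chromosome 5 had fold changes of opposite sign. *Gbp2* (chromosome 3, 142620602 to 142638008) is a GBP that binds bacterial and vacuolar membranes. It stood at 6.44, 9.05, 6.37, 9.37 and 5.91 CPM in ethanol mice, against 6.50, 6.79, 3.86, 5.98 and 5.34 CPM in saline mice. Ethanol 57 and ethanol 60 lay above all saline libraries, the other 3 ethanol libraries within their range. Its log2 fold change was 0.38 ± 0.17 (SE, edgeR FDR = 0.399; 0.26 without saline 36).

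*Gbp7* (chromosome 3, 142530342 to 142550149), a GBP linked to the oxidative killing of microbes, stood at 11.4, 18.1, 11.7, 11.2 and 12.6 CPM in ethanol mice. In saline mice it stood at 8.94, 10.3, 11.6, 12.3 and 8.55 CPM. Ethanol 57 lay far above the other 4 ethanol libraries, which lay from 11.2 to 12.6 CPM, beside the upper saline libraries. On the log2 scale the difference was 0.33 ± 0.14 (SE, edgeR FDR = 0.393) and 0.18 without ethanol 57. *Gbp3*, their neighbour, averaged 3.71 ± 0.65 CPM in ethanol and 2.89 ± 0.84 CPM in saline (SD, n = 5 each). Its difference was 0.36 ± 0.19 (log2, SE), 0.24 without saline 36 and 0.54 without saline 34.

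*Gbp6* (chromosome 5, 105270702 to 105293698), which had the highest mean CPM of all effectors, was the exception. It stood at 32.8, 34.9, 33.7, 39.1 and 39.8 CPM in ethanol mice, against 45.6, 37.7, 65.3, 45.1 and 45.9 CPM in saline mice. All 5 ethanol libraries lay below the saline mean, and saline 34 was the only saline library within the ethanol range. The log2 fold change was -0.41 ± 0.12 (SE, edgeR FDR = 0.287). Saline 36, which was lowest for most effectors, was highest here, and without it the value was -0.28.

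The other genes of the GBP family were added after these values were seen. *Gbp5* on chromosome 3 had a log2 fold change of 0.39 ± 0.19. On chromosome 5, *Gbp10* had -0.42 ± 0.15, *Gbp4* 0.33 ± 0.33 and *Gbp9* 0.0036 ± 0.29 (SE). *Gbp10* and *Gbp6* share part of their transcript sequence, and their values cannot be taken as independent. Of the 100-base stretches of *Gbp6* transcripts in GENCODE M21, as long as a read, 36.3% also occur in *Gbp10* and 59.0% in the overlapping gene model *Gm43302*, so reads could be assigned to either gene. For *Gbp7* the shared part was 10.01%, for *Igtp* 5.16%, for *Irgm2* 3.01% and for *Gbp3* 0.694%, while *Gbp2*, *Irgm1* and *Iigp1* shared 0%.

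**Figure D3:**
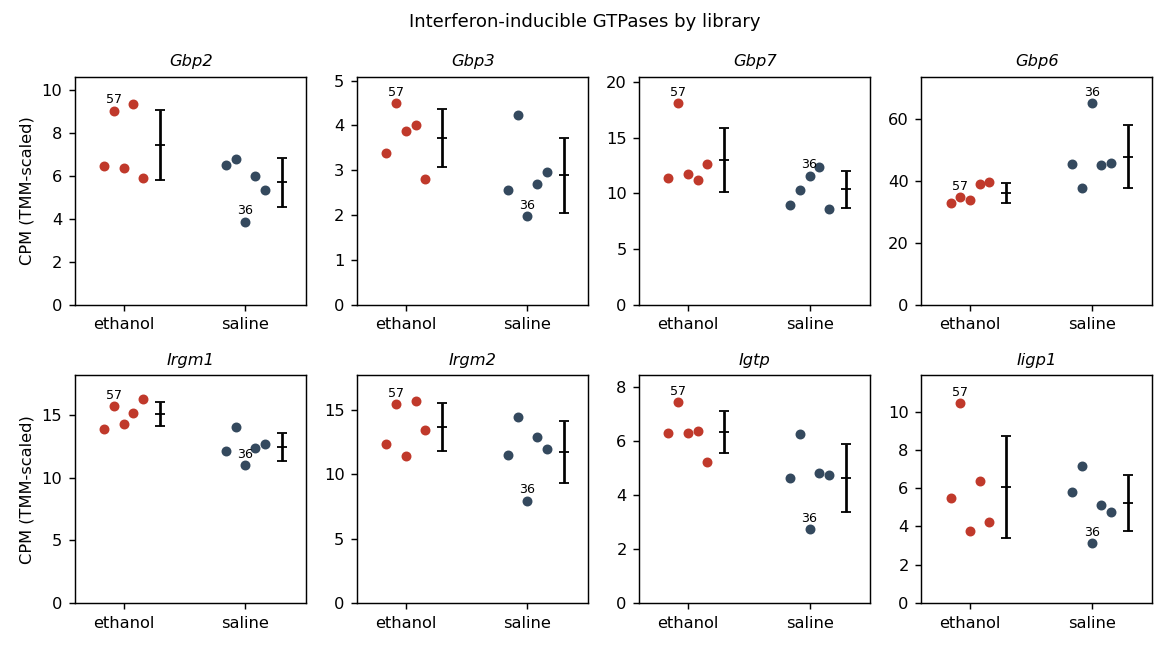
CPM of the 8 interferon-inducible GTPases in each library (points; ethanol left, saline right), with the mean and SD beside the points; the labels 57 and 36 mark ethanol 57 and saline 36, and each y axis starts at 0. Ethanol 57 is the highest library for *Gbp3*, *Gbp7*, *Igtp* and *Iigp1*, and saline 36 is the lowest for *Gbp2*, *Gbp3*, *Igtp*, *Irgm1*, *Irgm2* and *Iigp1* but the highest for *Gbp6*.

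Genes of ISG15 and of the ubiquitin and ADP-ribose modifiers formed the next group. ISG15 is a ubiquitin-like protein that is attached to other proteins, and USP18 removes it and dampens interferon signalling. Of the 6 members 5 had positive fold changes, with a median of 0.15 (log2). At an unadjusted p under 0.05 there was 1 (16.7%, against 12.1% of all tested genes).

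That gene was *Dtx3l* (chromosome 16, 35926511 to 35939151), a ubiquitin ligase that works as a pair with the ADP-ribosyltransferase PARP9. It stood at 6.02, 9.08, 9.30, 8.14 and 6.97 CPM in ethanol mice, against 6.19, 6.73, 5.63, 7.54 and 5.87 CPM in saline mice. Ethanol 57, 59 and 60 lay above all saline libraries, and ethanol 51 lay below their mean. On the log2 scale the difference was 0.31 ± 0.13 (SE, edgeR FDR = 0.392), with 0.23 to 0.39 when single libraries were left out.

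*Parp9*, which is read from the opposite strand next to *Dtx3l* and shares 458 exonic bases with it, had a log2 fold change of 0.21 ± 0.13, and *Parp14*, a larger relative in the same region, had 0.16 ± 0.12 (SE). *Parp9* was at 0.13 without saline 36, and *Parp14* at 0.066 without ethanol 57 and 0.089 without saline 36. The sources used here do not give the strand setting of the counting, and reads of the shared bases could fall to either gene. Opposite-strand exons also overlap those of *Irf1*, *Irf3*, *Irf7*, *Dhx58*, *Eif2ak2*, *Usp18*, *Gbp2* and *Ifi35*.

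*Isg15* itself (chromosome 4, 156199424 to 156200818), often used as a readout of type I interferon, stood at 1.47, 2.04, 1.76, 1.56 and 1.74 CPM in ethanol mice. In saline mice it stood at 1.69, 2.30, 1.38, 0.95 and 1.45 CPM. The ethanol values lay inside the saline range in every mouse. The log2 fold change was 0.14 with a 95% interval from -0.31 to 0.59, and 0.063 without ethanol 57. *Usp18* averaged 1.89 ± 0.22 CPM in ethanol and 1.88 ± 0.41 CPM in saline, and *Trim25*, the ligase that activates RIG-I, 21.2 ± 3.14 CPM in ethanol and 21.3 ± 0.31 CPM in saline (SD, n = 5 each). The 95% interval of *Trim25* ran from -0.21 to 0.19, narrower than for most members.

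The nucleic acid sensors and the enzymes they work with come upstream of interferon as well as among its targets. All 6 tested members had positive fold changes, with a median of 0.21 (log2). At an unadjusted p under 0.05 there were 0, against 12.1% of all tested genes. *Dhx58* (LGP2, a regulator of the RNA sensors) had 0.46 ± 0.24, *Oas1a* (an oligoadenylate synthetase) 0.29 ± 0.45 and *Ddx58* (RIG-I, a sensor of viral RNA ends) 0.27 ± 0.16 (log2 fold change ± SE). *Eif2ak2* (PKR, the kinase that halts translation on double-stranded RNA) had 0.14 ± 0.20, *Oasl2* 0.12 ± 0.21 and *Ifih1* (MDA5, a sensor of long double-stranded RNA) 0.035 ± 0.17. Without ethanol 57 the log2 fold change was 0.022 for *Eif2ak2*, 0.037 for *Oas1a*, 0.0033 for *Oasl2* and -0.071 for *Ifih1*. Without saline 36 it was 0.17 for *Ddx58*, 0.033 for *Eif2ak2*, -0.013 for *Oas1a*, -0.045 for *Oasl2* and -0.027 for *Ifih1*. *Dhx58* was at 0.30 without ethanol 51, 0.57 without saline 36 and 0.62 without ethanol 62.

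The scarcest genes of this group were *Dhx58*, *Oas1a* and *Zbp1*. *Dhx58* averaged 0.86 ± 0.27 CPM in ethanol and 0.63 ± 0.11 CPM in saline, and *Oas1a* 0.45 ± 0.22 CPM in ethanol and 0.37 ± 0.19 CPM in saline (SD, n = 5 each). For *Oas1a*, 40.9% of the 100-base stretches of its transcript also occur in *Oas1g*. *Zbp1*, which was not tested, averaged 0.40 ± 0.25 CPM in ethanol and 0.22 ± 0.08 CPM in saline (SD, n = 5 each).

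The IFIT proteins and the other antiviral effectors make up the largest group, with 10 tested members. All 10 had positive fold changes in the edgeR fit, with a median of 0.17 (log2). At an unadjusted p under 0.05 there was 1 (10%, against 12.1% of all tested genes). The value of *Ifit1* was near 0 and was negative in 12 of its 21 alternatives. *Bst2* (chromosome 8, 71534255 to 71537456), the tetherin that holds budding virions to the cell, stood at 7.04, 9.28, 7.11, 8.75 and 6.71 CPM in ethanol mice, against 6.27, 8.67, 4.32, 5.4 and 5.73 CPM in saline mice. Saline 34 lay among the highest ethanol libraries and the other saline libraries below all of them. The log2 fold change was 0.35 ± 0.17 (SE, edgeR FDR = 0.411; 0.24 without saline 36 and 0.52 without saline 34).

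*Samhd1* (chromosome 2, 157097533 to 157135265) degrades deoxynucleotides and was the effector with the second highest mean CPM. It stood at 25.3, 29.9, 27.6, 29.3 and 30.7 CPM in ethanol mice, against 22.2, 23.5, 30.6, 26.0 and 24.3 CPM in saline mice. Saline 36 was the only saline library above the ethanol mean. The log2 fold change was 0.17 ± 0.09 (SE, edgeR FDR = 0.467).

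The IFIT genes lie side by side on chromosome 19 and encode proteins that bind viral RNA. *Ifit2* averaged 5.09 ± 0.56 CPM in ethanol and 4.52 ± 0.43 CPM in saline, *Ifit3* 2.65 ± 0.81 CPM in ethanol and 2.40 ± 0.88 CPM in saline, and *Ifit1* 2.33 ± 0.68 CPM in ethanol and 2.34 ± 0.71 CPM in saline (SD, n = 5 each). The log2 fold changes were 0.17 ± 0.11, 0.15 ± 0.25 and 0.0019 ± 0.22 (SE). Without ethanol 57 they were 0.096 for *Ifit2*, -0.063 for *Ifit3* and -0.20 for *Ifit1*, and without saline 36 they were 0.025 for *Ifit3* and -0.064 for *Ifit1*. Of the 100-base stretches of *Ifit3*, 31.7% also occur in its copy *Ifit3b*.

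*Rsad2* (viperin, which makes a chain-terminating nucleotide) averaged 10.2 ± 2.11 CPM in ethanol and 8.81 ± 1.5 CPM in saline (SD, n = 5 each). *Ifi35* averaged 14.3 ± 2.96 CPM in ethanol and 12.7 ± 1.29 CPM in saline, and *Ifi27* 23.3 ± 1.36 CPM in ethanol and 21.9 ± 1.6 CPM in saline (SD, n = 5 each). *Ifi44* and the apoptosis regulator *Xaf1* were at 1.19 ± 0.57 and 2.20 ± 0.39 CPM in ethanol and at 0.90 ± 0.38 and 1.79 ± 0.53 CPM in saline (SD, n = 5 each). Their log2 fold changes lay between 0.092 for *Ifi27* and 0.41 for *Ifi44*, and the 95% interval included 0 for each of these 5 genes. Without ethanol 57 the value was 0.057 for *Ifi44*, 0.078 for *Ifi35* and 0.19 for *Xaf1*. It was 0.26 for *Ifi44* without saline 36, and 0.078 for *Rsad2* without ethanol 60.

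The IRF and STAT factors differed by less. IRF9 and STAT2 are parts of the complex that binds the ISRE, IRF7 and IRF3 switch on the interferon genes, IRF1 and IRF8 act downstream of interferon gamma, and IRF2 competes with IRF1 for the same sites. None of the 7 was at an unadjusted p under 0.05 in the edgeR fit or in any alternative in which it was fitted (21 for *Irf7* and *Stat2*, 22 for the others), and all 7 intervals included 0.

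*Irf2* (chromosome 8, 46739732 to 46847458) stood at 43.9, 32.8, 27.7, 43.7 and 46.1 CPM in ethanol mice, against 43.5, 33.4, 59.8, 42.3 and 38.0 CPM in saline mice. Saline 36 lay above all other libraries, as it did for *Gbp6*. The log2 fold change of *Irf2* was -0.16 with a 95% interval from -0.54 to 0.21, and -0.025 without saline 36. *Irf3* (chromosome 7, 44997648 to 45002848), a factor activated by phosphorylation rather than by new synthesis, stood at 15.7, 17.0, 15.6, 14.4 and 16.9 CPM in ethanol mice. In saline mice it stood at 13.8, 17.5, 15.4, 12.7 and 15.4 CPM, a range that holds all 5 ethanol values. Its log2 fold change was 0.091 with an interval from -0.11 to 0.29.

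*Irf7* (chromosome 7, 141262706 to 141266481), the interferon-induced amplifier of the response, stood at 4.14, 6.07, 3.40, 4.16 and 3.19 CPM in ethanol mice, against 3.65, 4.68, 3.48, 3.40 and 3.32 CPM in saline mice. Ethanol 57 and saline 34 were the high libraries of their groups. The log2 fold change was 0.18 with a 95% interval from -0.19 to 0.55, and 0.0022 without ethanol 57.

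*Irf9* (chromosome 14, 55603571 to 55610030) stood at 5.07, 7.88, 6.41, 5.53 and 5.62 CPM in ethanol mice, against 5.49, 6.73, 5.86, 5.61 and 5.48 CPM in saline mice. *Stat2* (chromosome 10, 128270559 to 128292849) stood at 4.40, 6.4, 5.24, 4.78 and 4.17 CPM in ethanol mice, against 4.96, 4.98, 4.37, 5.12 and 4.02 CPM in saline mice. Ethanol 57 was again the highest of the 10 for both. The log2 fold changes were 0.066 (95% interval -0.21 to 0.34) and 0.092 (-0.19 to 0.38), and both were negative without ethanol 57, at -0.048 and -0.018. *Irf1* averaged 7.20 ± 1.42 CPM in ethanol and 7.27 ± 0.69 CPM in saline, and *Irf8* 5.67 ± 0.91 CPM in ethanol and 5.35 ± 0.88 CPM in saline (SD, n = 5 each). For *Irf8* the log2 fold change was 0.088, with 0.022 without ethanol 57 and 0.046 without saline 36.

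The level of the members also varied from mouse to mouse within each group. Each gene was centred on its mean log2 CPM over the 10 libraries, and the median over the 30 effectors was taken in each library. It was -0.026, 0.39, 0.025, 0.16 and -0.0198 in ethanol mice 51, 57, 59, 60 and 62, against 0.0058, 0.050, -0.33, -0.092 and -0.16 in saline mice 32, 34, 36, 38 and 39. Ethanol 57 lay highest and saline 36 lowest, and the other 8 libraries overlapped.

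Ethanol 57 held the highest CPM of 15 of the 30 effectors and of 4 of the 7 factors. Saline 36 held the lowest CPM of 16 effectors and of 0 factors, and 11 effectors had both extremes in these libraries. For the factors the median of the centred values was 0.027, 0.28, 0.024, -0.0080 and -0.073 in ethanol mice, against -0.063, 0.18, -0.015, 0.014 and -0.11 in saline mice. So the high level in ethanol 57 extended to the factors, and the low level in saline 36 did not appear in their median. In 8 of 30 effectors and 0 of 7 factors all 5 ethanol libraries lay above the saline mean, as they did in 10.8% of all tested genes.

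Marker lists of other cell types, which the bulk RNA also holds, were measured beside these values. Summed macrophage markers (11 of 14 tested) stood at 162, 141, 115, 157 and 137 CPM in ethanol mice, against 138, 115, 123, 147 and 140 CPM in saline mice. Neither ethanol 57 nor saline 36 was at an end of the macrophage range, but they were for other lists. The median centred log2 CPM of the fibroblast markers was highest in ethanol 57 (0.29, with ethanol 60 at 0.28) and lowest in saline 36 (-0.27), as for the effectors. By summed CPM of the fibroblast markers neither library was at an end. There ethanol 51 was highest (1610) and ethanol 59 lowest (1133), with ethanol 57 at 1550 and saline 36 at 1292. That of the dendritic cell markers was lowest in saline 36 (-0.48), and the myofibre sum was highest there. Of the tested macrophage markers 10 were positive, with a median log2 fold change of 0.15. At an unadjusted p under 0.05 there was 1, higher in ethanol (9.09%, against 12.1% of all tested genes). Summed adipocyte markers stood at 596 to 1383 CPM in ethanol and 449 to 633 CPM in saline, with ethanol 60 highest and saline 36 lowest. All 9 adipocyte markers were positive, with a median of 0.87, and 4 were at an unadjusted p under 0.05 (44.4%).

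Endothelial markers summed to 559 to 739 CPM in ethanol and 517 to 685 CPM in saline (10 of 12 positive, median log2 fold change 0.15, 2 higher in ethanol at an unadjusted p under 0.05). Fibroblast markers summed to 1133 to 1610 CPM in ethanol and 1140 to 1467 CPM in saline (9 of 10 positive, median 0.22). At that p 3 fibroblast markers were higher in ethanol, among them *Cd248*, whose groups did not overlap. Dendritic cell markers summed to 7.98 to 8.86 CPM in ethanol and 7.01 to 9.78 CPM in saline (6 of 9 tested, 5 positive, 1 higher in ethanol at that p). Lymphocyte markers were near the floor, at a sum of 0.60 to 1.09 CPM in ethanol and 0.40 to 1.15 CPM in saline, with 0 of 13 tested. Neutrophil markers summed to 1.2 to 4.89 CPM in ethanol and 2.95 to 13.8 CPM in saline, with *Camp* at 0 in every library, and all 4 tested markers were negative, with a median of -1.62 and 2 at an unadjusted p under 0.05. Of all tested genes 12.1% were at an unadjusted p under 0.05 (6.22% higher and 5.91% lower in ethanol), and 2.18% had groups that did not overlap. The part of these cells in the levels of the interferon-stimulated genes was not tested.

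**Figure D4:**
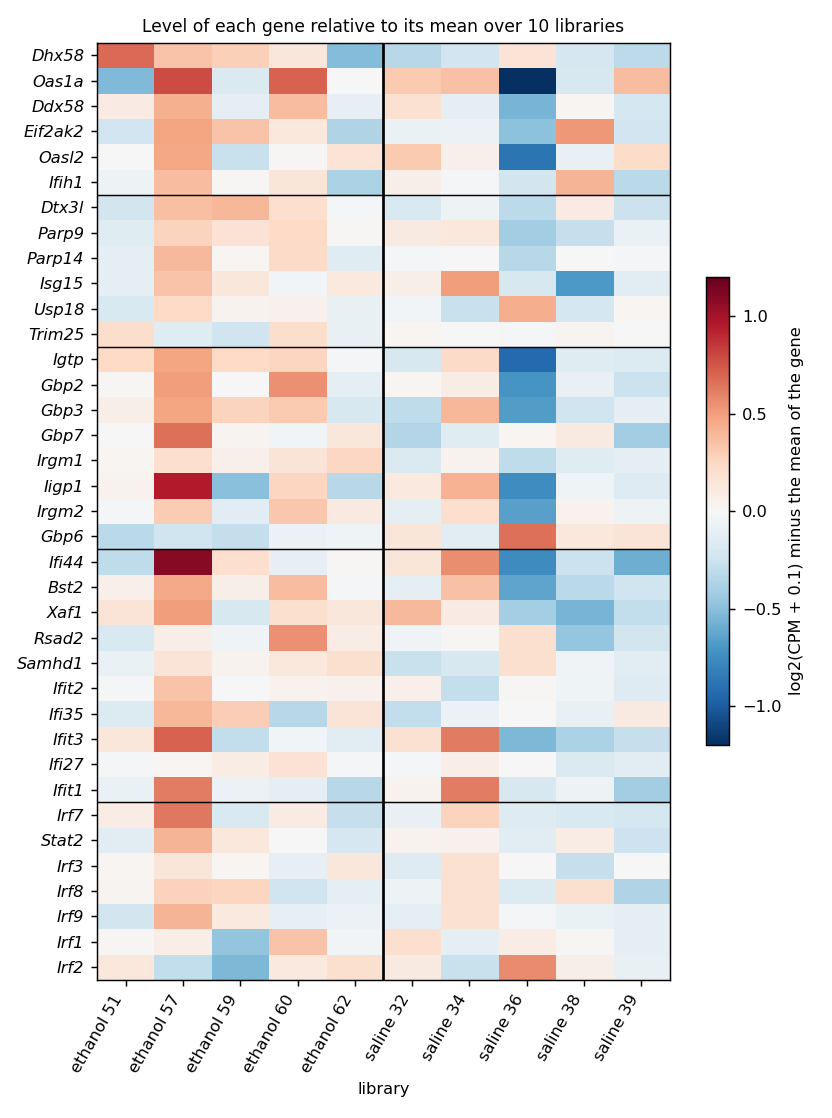
Level of the 37 tested members in each library, as log2(CPM + 0.1) minus the mean of the gene over the 10 libraries; ethanol libraries stand left of the vertical line and saline libraries right, horizontal lines separate the roles (sensors, modifiers, GTPases, IFIT and other antiviral effectors, factors), and the colours end at 1.2 in either direction. The column of ethanol 57 is mostly red and that of saline 36 mostly blue down to the factors, with *Gbp6*, *Usp18* and *Irf2*, whose highest library is saline 36, among the exceptions.

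Levels between genes were compared per kilobase of the longest GENCODE transcript. The median over the 30 effectors was 1.69 CPM per kilobase in ethanol and 1.5 in saline, and that over the 7 factors was 1.63 in ethanol and 1.54 in saline. Effectors thus ranged around the level of the factors, and over a wider span. They ran from 0.24 (*Oas1a*) to 23.9 (*Ifi27*) CPM per kilobase in ethanol and from 0.19 to 22.4 in saline, while the factors ran from 1.14 (*Stat2*) to 9.79 (*Irf2*) in ethanol and from 1.07 to 10.9 in saline.

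The order of the factors per kilobase was *Irf2*, *Irf3*, *Irf1*, *Irf8*, *Irf9*, *Irf7* and *Stat2* in both groups. *Irf3* stood at 7.84 CPM per kilobase in ethanol and 7.37 in saline and *Irf1* at 3.37 in ethanol and 3.40 in saline, while the neighbours *Irf8* and *Irf9*, at 1.63 and 1.58 in ethanol and 1.54 and 1.51 in saline, differed by less than their SD between mice, as did *Irf7* and *Stat2*. Per kilobase of merged exons *Irf8* came last of the factors instead, at 0.80 in ethanol and 0.76 in saline. Among the effectors *Ifi27*, *Gbp6*, *Ifi35*, *Bst2* and *Samhd1* led in both groups, with *Ifi35* at 10.5 CPM per kilobase in ethanol and 9.36 in saline. *Ifi35* and *Bst2* stood above *Gbp6* in ethanol and below it in saline. Per kilobase of merged exons *Trim25* and *Irgm2* stood above *Samhd1* in both groups and *Igtp* did so in ethanol, and *Ifi44* rather than *Oas1a* was lowest. *Isg15* stood above the effector median, at 2.27 in ethanol and 2.06 in saline. Other antiviral targets lay on both sides of that median. *Rsad2* stood above it, at 2.44 in ethanol and 2.10 in saline, as did *Bst2* and *Samhd1*. Below it stood *Ifit1* at 0.88 in both, *Oasl2* at 0.86 in ethanol and 0.80 in saline and *Ifi44* at 0.29 in ethanol and 0.22 in saline.

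**Figure D5:**
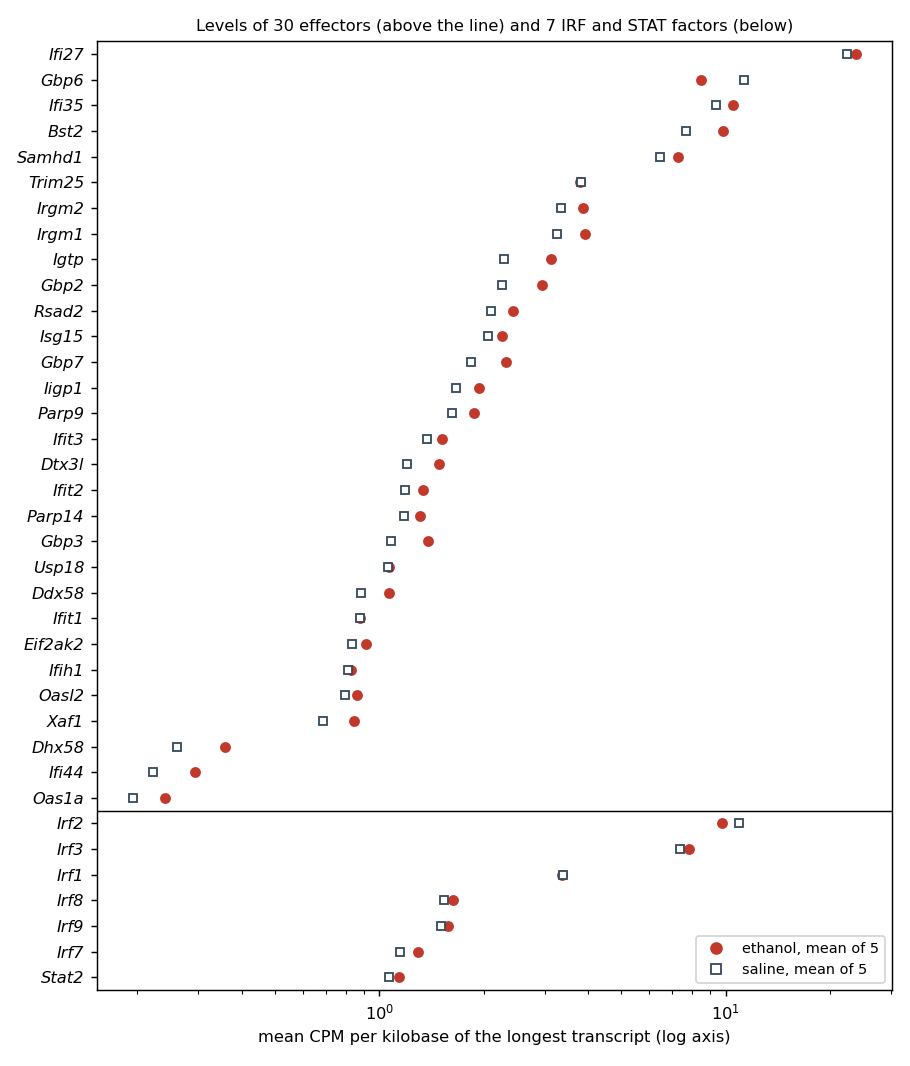
Mean CPM per kilobase of the longest transcript (log axis) of 30 effectors and 7 IRF and STAT factors in ethanol (filled circles) and saline (open squares), each a mean of 5 libraries, ordered by the saline level within each class. The effectors span from *Ifi27*, above 20 CPM per kilobase, to *Oas1a*, below 0.3, and *Gbp6* is the effector whose ethanol mean lies clearly below its saline mean.

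Upstream of the members, transcripts of the interferons themselves were not detectable at this depth. Of 14 interferon genes of the list 12 had 0 counts in all 10 libraries, *Ifnb1* and the alpha genes among them. *Ifng* and *Ifnz* had at most 2 counts in any library. A count of 0 allows up to 3 counts, or 0.096 to 0.14 CPM in an ethanol library and 0.076 to 0.092 CPM in a saline library, and these limits cover counting error only.

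The chains of the type I and type II receptors were all above the low-count filter. *Ifnar1* and *Ifnar2*, the receptor of type I interferons, averaged 17.0 ± 1.2 and 10.2 ± 0.39 CPM in ethanol and 18.1 ± 1.66 and 9.08 ± 1.15 CPM in saline (SD, n = 5 each). *Ifngr1* and *Ifngr2*, the receptor of interferon gamma, averaged 43.6 ± 5.39 and 64.1 ± 9.55 CPM in ethanol and 45.3 ± 4.82 and 61.5 ± 5.44 CPM in saline (SD, n = 5 each). The kinase gene *Jak2* had the smallest p among the receptors and their kinases, with 66.7 ± 4.22 CPM in ethanol and 78.7 ± 11.2 CPM in saline (SD, n = 5 each). Its difference was -0.24 ± 0.10 (log2, SE, edgeR FDR = 0.370). *Jak1* had -0.26 ± 0.15 and *Stat3* -0.11 ± 0.07 (SE). Of the 10 tested genes of this list 5 were positive, with a median of -0.0033. At an unadjusted p under 0.05 there was 1, lower in ethanol (10%, against 12.1% of all tested genes).

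Of 17 tested genes of nucleic acid sensing upstream of interferon 9 were positive, with a median log2 fold change of 0.024. At an unadjusted p under 0.05 there were 2 (11.8%, against 12.1% of all tested genes). These were *Unc93b1*, the chaperone of endosomal Toll-like receptors (0.32 ± 0.12), and the RNA receptor gene *Tlr3* (0.40 ± 0.17, log2 fold change ± SE). The kinase gene *Tbk1* had -0.28 ± 0.14 and *Irf5* 0.23 ± 0.17. Of 14 negative regulators of interferon signalling 5 were positive, with a median of -0.067. At an unadjusted p under 0.05 there was 1 (7.14%), *Nlrx1* (0.21 ± 0.08). The deubiquitinase gene *Tnfaip3* had 0.39 ± 0.19, the phosphatase gene *Ptpn11* -0.21 ± 0.11 and *Socs3*, an inhibitor of JAK kinases, -0.50 ± 0.30.

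A list of 84 other interferon-stimulated genes, with 64 tested, held values in both directions. Of these 42 were positive (65.6%), with a median log2 fold change of 0.12. At an unadjusted p under 0.05 there were 9 higher and 7 lower in ethanol (25.0% of 64, against 12.1% of all tested genes). *Tap2*, a subunit of the peptide transporter of antigen presentation, averaged 14.8 ± 2.89 CPM in ethanol and 10.8 ± 0.75 CPM in saline (SD, n = 5 each). It was the 1 gene of the 64 whose groups did not overlap, against 2.18% of all tested genes. Its difference was 0.45 ± 0.12 (log2, SE, edgeR FDR = 0.287). *Lgals3bp*, a secreted glycoprotein gene, and the membrane protein gene *Ly6e* had 0.45 ± 0.13 and 0.36 ± 0.11, and *Ifi30*, a lysosomal reductase gene, had -0.37 ± 0.11 (SE).

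The members were also divided by the ISRE letters. The 17 members with the letters in their window had a median log2 fold change of 0.22, with 16 positive and 5 at an unadjusted p under 0.05, all higher in ethanol. The 13 tested members with a window and no such letters had a median of 0.17, with 11 positive and 1 at that p, likewise higher. Of all tested genes 6.22% were higher at that p. Both sets leave out *Gbp6*, the only member lower at that p, for which no window was matched. The letters were found for 15 of 24 effectors with a window but for 2 of 7 factors, so the sets also differ in their share of factors. The split was made after the fold changes were known and was not tested.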

How the data were processed

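Poly(A) RNA of gastrocnemius and plantaris muscle was sequenced from a single end in 100-base reads, per the labels' protocols. The authors deposited whole-number read counts per gene symbol for 10 libraries. TopHat2, DESeq2 1.6.3 and mm10 are named, without a role, per the submitters' processing notes; the sources used here do not give the read counter, gene annotation or strand setting. A date stood in place of the symbol in 27 of 24421 rows, which stayed, unnamed, in library totals and in the fit. Counts were analysed as deposited, 5 libraries a group.

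Genes passed edgeR's filterByExpr (minimum count 10, minimum total 15), were scaled by TMM and tested with edgeR 4.0.16 (quasi-likelihood, robust), ethanol minus saline, with Benjamini-Hochberg adjustment over 13180 genes and an FDR threshold of 0.05. SE is the log2 fold change over the square root of F. Log2 CPM carry a prior count of 2. Alternatives used DESeq2 1.42.0, limma 3.58.1 (voom) and sva 3.50.0 in R 4.3.3. The fit was tested on simulated data, in which the changes were larger than those of the members here. Levels per kilobase, coordinates and shared stretches use GENCODE M21 (GRCm38), which may not be the authors' annotation.

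The members and all lists were chosen with earlier results of these data known. Described per library are members at an unadjusted p under 0.05 or with groups that do not overlap, the 2 effectors and 2 factors of highest mean CPM, and *Isg15*, *Irf7*, *Irf9* and *Stat2*; from each other pathway list, the 4 genes of smallest p, and the 4 receptor genes; 1 gene that this rule names is not reported here. No 2 libraries of a group agreed within sampling noise (chi-square per degree of freedom 13.9 to 98.7). The animal numbers name separate mice.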

Additional observations from a re-analysis of the deposited data

Results flagged for a closer look

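In 7 of the 74 sets of 5 libraries (37 members, 2 groups) 1 library lay far from the other 4, by the gap to its nearest neighbour over the whole range of the group. Chance gives about 1 in 20 such sets, and genes that vary together are not separate cases. Ethanol 57 was that library for 4 genes. It held 18.1 CPM of *Gbp7*, with the next ethanol library at 12.6 CPM, 3.52 CPM of *Ifit1* (next 2.15), 6.07 CPM of *Ifit2* (next 4.97) and 2.18 CPM of *Ifi44* (next 1.13). Saline 36 was that library for 2 genes, in opposite directions. It held 7.24 CPM of *Parp14*, below the next saline library at 9.02 CPM, and 0.82 CPM of *Dhx58*, above the next at 0.61 CPM. Saline 34 held 4.68 CPM of *Irf7*, with the next saline library at 3.65 CPM.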

How the results depend on the processing

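No paired analysis was possible because the groups share no animal numbers. No member passed an FDR of 0.05 in any of the alternatives in which it was fitted (up to 22), and 20 of the 37 members never changed direction. Over single libraries left out, members at an unadjusted p under 0.05 numbered 2 to 8 (1 to 7 of them higher in ethanol). Of all tested genes 8.19% to 14.5% were at that p in these fits, and genes at an FDR of 0.05 numbered 0 to 1. DESeq2 called 54 genes at that FDR. With 1 surrogate variable there were 7 such genes. At the unadjusted p there were then 2 members (2 higher and 0 lower in ethanol), against 10.1% of all tested genes. Without saline 36 and ethanol 57, a setting chosen after seeing the data, there were 14 genes at that FDR. At the unadjusted p there were then 1011 genes (7.67% of those tested) and 3 members, 2 of these members higher in ethanol. Merged exon length gave saline medians of 1.16 CPM per kilobase for the effectors and 1.08 for the factors.

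The other 17 members changed direction at least once, and the cause was not tested. Their log2 fold changes of opposite sign were as follows. With 1 surrogate variable they were 0.10 for *Irf1*, 0.15 for *Irf2*, -0.040 for *Irf8*, -0.073 for *Irf9*, -0.023 for *Stat2*, -0.033 for *Ifih1*, -0.063 for *Eif2ak2*, -0.22 for *Oas1a*, -0.079 for *Oasl2*, -0.076 for *Isg15*, 0.075 for *Trim25*, -0.035 for *Iigp1*, -0.24 for *Ifit1*, -0.10 for *Ifit3* and -0.093 for *Ifi44*. Without saline 36 and ethanol 57 they were 0.031 for *Irf2*, -0.024 for *Irf7*, -0.016 for *Irf8*, -0.050 for *Irf9*, -0.046 for *Stat2*, -0.13 for *Ifih1*, -0.081 for *Eif2ak2*, -0.26 for *Oas1a*, -0.16 for *Oasl2*, 0.016 for *Trim25*, -0.22 for *Iigp1*, -0.26 for *Ifit1*, -0.18 for *Ifit3* and -0.090 for *Ifi44*. Without saline 36 and ethanol 60 they were -0.053 for *Ifih1*, -0.16 for *Oas1a*, -0.028 for *Oasl2* and -0.030 for *Ifit1*. Scaling by total counts gave 0.030 for *Irf1* and 0.033 for *Trim25*. Counts thinned to the smallest library gave -0.013 for *Isg15*, -0.28 for *Usp18* and -0.072 for *Ifit1*. DESeq2 gave -0.0067 for *Usp18* and -0.0086 for *Ifit1*. DESeq2-type size factors in edgeR gave -0.0059 for *Usp18* and -0.0067 for *Ifit1*. No low-count filter gave -0.0085 for *Usp18* and -0.012 for *Ifit1*. Removing the GC trend gave -0.017 for *Usp18*. A minimum mean of 5 CPM gave 0.0056 for *Trim25*. Leaving out single libraries gave -0.11 to 0.079 for *Irf1*, -0.048 to 0.13 for *Irf9*, -0.018 to 0.15 for *Stat2*, -0.071 to 0.16 for *Ifih1*, -0.013 to 0.47 for *Oas1a*, -0.045 to 0.22 for *Oasl2*, -0.068 to 0.13 for *Usp18*, -0.066 to 0.043 for *Trim25*, -0.076 to 0.37 for *Iigp1*, -0.20 to 0.20 for *Ifit1* and -0.063 to 0.37 for *Ifit3*.

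Low counts limit *Oas1a*, *Dhx58* and *Ifi44* most, and the ethanol libraries were the shallower ones.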
